A study of Mus musculus with 8 samples.

Results

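The regions described here are stretches of mouse chromatin, over 100 kb from any protein-coding gene, whose call as acetylated at lysine 27 of histone H3 (H3K27ac) differed between embryonic stem cells given 4-hydroxytamoxifen (4OHT) for 2 h and untreated cells. Peaks of 4 H3K27ac libraries that shared at least 1 bp were merged into 82792 union regions, of which 7666 lay over 100 kb from the nearest of 21887 protein-coding gene intervals and are called desert regions below. The members were chosen by the measured peak calls and by this distance: 481 were called in both 4OHT lists and in neither untreated list (gained), and 798 were called in both untreated lists and in neither 4OHT list (lost), which makes 1279 of the 82792 union regions. Over all union regions, 6.2% were gained and 6.26% were lost by the same rule. Because the calls chose the members, their direction is given as a description with no test.

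The treated group was E14tg2a mouse embryonic stem cells (129SV background) stably expressing cRAF-ErT2, a RAF kinase fused to a hormone-binding domain that 4OHT switches on, given 250 nM 4OHT for 2 h. The untreated group was the same cells without 4OHT, and the labels name no vehicle control. Both groups had been kept in serum medium containing LIF and the GSK3 inhibitor Chir99021 (2 uM), and for the last 24 h in serum medium with LIF and the FGF receptor inhibitor PD173074 (250 nM). Each group had 2 libraries, from clones labelled a and b that appear in both groups; the labels do not say whether the clones were derived separately, and phosphorylated ERK was not measured in these files. The 4 peak lists held 59170 and 62764 peaks in 4OHT clones a and b and 61203 and 63276 peaks in untreated clones a and b; read depth is unknown, so a region missing from a list may lie just under a calling threshold. All 8 embryonic stem cell markers examined, among them Pou5f1, Nanog and Esrrb, were covered by peaks in all 4 libraries. None of 4 primitive endoderm markers was covered in all 4 libraries, with 0.407 and 0.87 kb summed over the list in 4OHT clones a and b against 0 and 0.496 kb in untreated clones a and b. Of 5 fibroblast genes, 4 were covered in no library, and Col1a1 was covered for 0.77 and 0.763 kb in 4OHT clones a and b and 0.657 and 0.711 kb in untreated clones a and b.

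H3K27ac is placed by the acetyltransferases p300 and CBP and marks active enhancers and promoters. Gene deserts are long stretches without protein-coding genes; many flank genes for transcription factors and signalling proteins and hold enhancers that act over long distances. RAF activates MEK and then ERK, which phosphorylates transcription factors of the ETS family and raises the amount of AP-1 factors such as FOS, and in mouse embryonic stem cells ERK activity moves cells away from the naive pluripotent state.

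Few members lay at an annotated transcript start. Of the gained members, 13 of 481 (2.70%) overlapped a RefSeq promoter window of 300 bases (250 before to 50 after a start), against 6 of 798 lost members (0.752%), 2.78% of the 2012 desert regions called in all 4 lists and 1.43% of all desert regions. The windows below, from RefSeq on assembly GRCm38.p6 (the reference strain, not 129SV), were picked, after their letters were seen, for the gained deserts described below (3 windows) and, for lost members, because they lie wholly in them; each is printed 5′ to 3′ in lower case, with exact matches to the ETS letters CCGGAA and the AP-1 letters TGANTCA on either strand in capitals. The first is the start of the long noncoding RNA (lncRNA) Gm40763 in the desert beside Phlda1 (chr10:111636320-111636619, minus strand), of which 286 bases lie in gained members.
Gm40763: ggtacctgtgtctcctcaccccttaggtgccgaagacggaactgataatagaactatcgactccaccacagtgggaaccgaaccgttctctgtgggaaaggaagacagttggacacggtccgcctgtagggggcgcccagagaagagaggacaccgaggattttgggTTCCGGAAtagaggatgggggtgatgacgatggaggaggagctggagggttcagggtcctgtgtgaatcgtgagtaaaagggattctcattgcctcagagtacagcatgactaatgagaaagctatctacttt
The second is the start of Morrbid, a lncRNA known in mouse blood cells to repress the neighbouring cell-death gene Bcl2l11 (chr2:128429302-128429601, minus strand, 188 bases in a gained member). Those are the first 188 bases printed, so the ETS match lies in the member and the AP-1 match lies outside it.
Morrbid: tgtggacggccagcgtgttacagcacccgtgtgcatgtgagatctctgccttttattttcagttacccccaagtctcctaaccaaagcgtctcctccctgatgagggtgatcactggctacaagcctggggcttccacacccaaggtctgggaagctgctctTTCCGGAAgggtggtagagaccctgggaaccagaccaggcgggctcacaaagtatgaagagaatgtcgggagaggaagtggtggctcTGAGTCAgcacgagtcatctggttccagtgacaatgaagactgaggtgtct
The third lies in the desert beside Dusp4 (chr8:34689909-34690208, minus strand, 202 bases in a gained member) and holds none of the letters searched for ETS or AP-1.
Gm46069: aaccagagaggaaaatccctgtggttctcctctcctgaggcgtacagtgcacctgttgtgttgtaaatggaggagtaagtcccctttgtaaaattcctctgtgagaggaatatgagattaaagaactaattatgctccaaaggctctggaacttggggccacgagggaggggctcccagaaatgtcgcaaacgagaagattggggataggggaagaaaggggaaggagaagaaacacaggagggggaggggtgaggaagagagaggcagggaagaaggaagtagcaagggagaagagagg
The last 2 lie wholly in lost members, at chr17:83956754-83957053 (minus strand) and chr6:16524505-16524804 (plus strand), and hold neither motif. The gained windows that lie wholly in members, those of Gm40634 and Gm33819, are not printed and hold neither motif as well.
Gm41638: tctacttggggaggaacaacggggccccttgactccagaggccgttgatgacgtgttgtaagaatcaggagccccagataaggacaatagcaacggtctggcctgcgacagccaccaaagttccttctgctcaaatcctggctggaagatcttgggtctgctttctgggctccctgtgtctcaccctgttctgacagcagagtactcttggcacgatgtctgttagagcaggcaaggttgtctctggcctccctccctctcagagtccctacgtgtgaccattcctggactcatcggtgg
Gm36503: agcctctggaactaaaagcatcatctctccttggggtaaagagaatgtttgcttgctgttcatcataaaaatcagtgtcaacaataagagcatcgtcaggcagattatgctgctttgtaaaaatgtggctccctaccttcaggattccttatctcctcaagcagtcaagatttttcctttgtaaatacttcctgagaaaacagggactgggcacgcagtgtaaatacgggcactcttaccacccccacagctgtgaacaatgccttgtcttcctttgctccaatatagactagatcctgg
In the first 2 windows the ETS letters form the same 8-base palindrome TTCCGGAA, which counts as overlapping matches on both strands. Over the 12 windows touched by gained members, 3 held AP-1 letters and 2 held ETS letters, against 0 and 0 of 7 windows touched by lost members. Matches were counted over the whole window, whether or not they lay in a member. Of all 32851 promoter windows, 7.81% held the AP-1 and 14.9% the ETS letters. The SOX letters ACAAAG were in 6 of 12 gained and 2 of 7 lost windows, against 18.7% of all windows, and the KLF letters CCACCC in 5 of 12 and 3 of 7, against 31.5%. The OCT letters ATGCAAAT were in 1 of 12 and 0 of 7, against 1.74%, and the ESRRB letters AAGGTCA in none of either, against 4.72%. These matches are counts over few windows, some of which overlap, and describe the reference sequence only.

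Lost members outnumbered gained ones in deserts. Nearer to genes the numbers were close when regions inside genes were counted together with those outside. Gained regions made up 37.6% of the changed desert regions (95% Wilson interval 35.0 to 40.3, which covers counting error only and treats neighbouring regions as independent), against 51.4% of the changed regions within 100 kb of a gene. Put the other way, 9.38% of all 5130 gained regions and 15.4% of all 5185 lost regions lay in deserts, against 6.68% of the regions called in all 4 lists and 9.26% of all union regions. Of the 7666 desert regions, 6.27% were gained and 10.4% lost; of the regions nearer to genes, 6.19% were gained and 5.84% lost. Pooled over all distances in a zone, the gained share was close to that of all union regions in both zones, and the lost share was higher in deserts. Within deserts the gained share differed by distance, as given below. The level of the gained share rested on which lists were compared: it was 57.8% in deserts and 64.4% nearer to genes without 4OHT clone a, 46.2% and 62.2% without 4OHT clone b, 25% and 36.9% without untreated clone a, and 29.6% and 37.7% without untreated clone b. In each of these the desert share was the lower.

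The gained share of changed regions was lower at longer distances. It was 57.4% for regions overlapping a gene (2927 gained, 2173 lost), 45.3% from 1 bp to 20 kb, 41.7% from 20 to 50 kb and 42.0% from 50 to 100 kb. Inside deserts it was 43.8% between 100 and 200 kb (260 gained, 333 lost), 35.4% between 200 and 500 kb (181 gained, 331 lost), 25% between 500 kb and 1 Mb (29 gained, 87 lost) and 19.0% over 1 Mb (11 gained, 47 lost). The step at the 100 kb limit was thus small, and the lower values lay over 200 kb from genes. The lost share of union regions was 4.83% for those overlapping a gene and 6.57% from 1 bp to 20 kb. It was 8.72% from 20 to 50 kb, 8.38% from 50 to 100 kb, 9.73% from 100 to 200 kb and 9.47% to 11.5% beyond. The higher lost share was thus not confined to deserts. The gained share of union regions was 7.60% from 100 to 200 kb, 6.31% from 200 to 500 kb, 3.16% from 500 kb to 1 Mb and 2.41% over 1 Mb. Over 500 kb from genes, fewer gains thus went with the low gained share of changed regions. At the limit itself, the gained region just inside lay 100.727 kb from Rybp and the one just outside 99.99 kb from Rragc, while the lost region just inside lay 100.002 kb from Eea1 and the one just outside 99.974 kb from Myc.

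**Figure D1:**
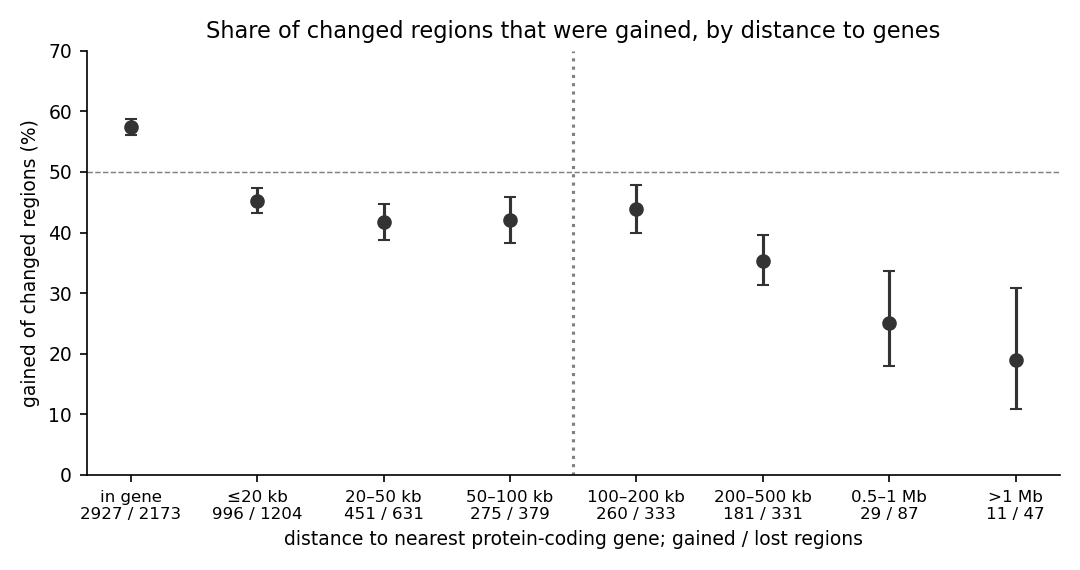
Share of changed regions that were gained (vertical axis, percent, with 95% Wilson intervals) by distance to the nearest protein-coding gene (horizontal axis, with the numbers of gained and lost regions under each class); the dotted line marks the 100 kb limit and the dashed line equal numbers. The share was 57.4% inside genes, 41.7% to 45.3% from 1 bp to 200 kb and 19.0% over 1 Mb.

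Less of the genome's desert was covered by peaks in the 4OHT libraries, by measures that come from the same lists but do not use the call pattern. The length covered by desert peaks was 3.23 and 3.63 Mb in 4OHT clones a and b, against 3.99 and 4.08 Mb in untreated clones a and b. Both 4OHT values lay below both untreated values, and the mean was 3.43 ± 0.286 Mb in 4OHT cells and 4.03 ± 0.0675 Mb in untreated cells (SD, n = 2 each). The difference was -0.607 Mb over the group means, -0.762 Mb within clone a and -0.453 Mb within clone b; an exact two-sided permutation test of 2 against 2 libraries gave p = 0.333, the smallest it allows, so this design could not reach 0.05. As a share of each list's covered length, desert peaks took 6.26% and 7.16% in 4OHT clones a and b and 7.51% and 8.10% in untreated clones a and b, with no overlap of the groups. The total covered length did not separate the groups, with a mean of 51.1 Mb in 4OHT cells and 51.7 Mb in untreated cells, nor did the median width of desert peaks, which in clones a and b was 471 and 459 bp after 4OHT, against 494 and 468 bp in the untreated libraries.

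**Figure D2:**
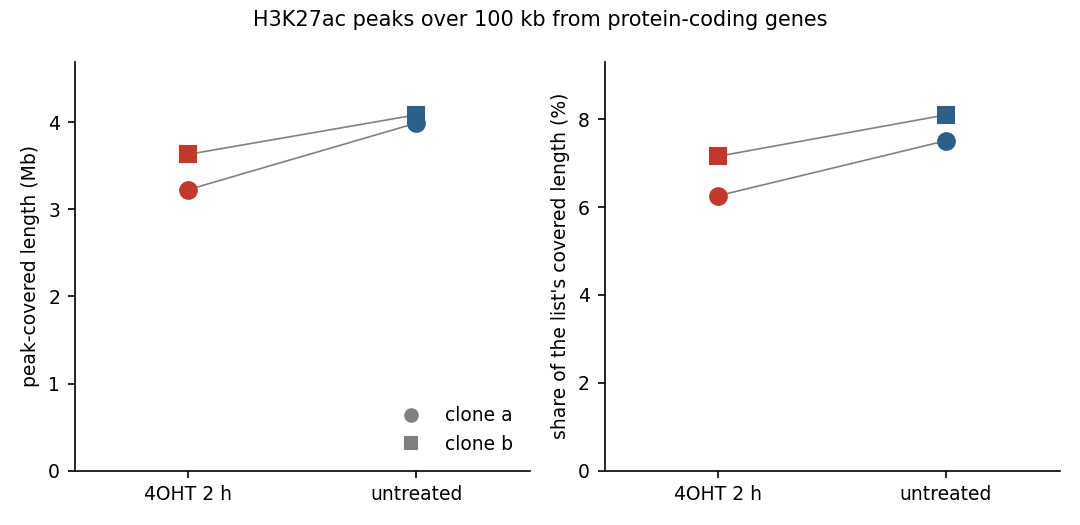
Length covered by H3K27ac peaks over 100 kb from protein-coding genes, in Mb (left) and as a percent of each list's covered length (right), for the 4OHT and untreated libraries; circles are clone a, squares clone b, and grey lines join a clone's libraries. In both clones the 4OHT library had the lower value, 3.23 against 3.99 Mb in clone a and 3.63 against 4.08 Mb in clone b.

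The genome was also cut into 50 kb tiles, and the peak-covered length per tile was compared with limma on log2(covered bp + 500), which understates changes of tiles with little coverage. Of 15800 tiles fitted, 603 were longer in 4OHT cells (3.82%) and 687 were shorter (4.35%) at a Benjamini-Hochberg adjusted p under 0.05. Of the 1558 desert tiles, chosen by position alone, 69 were longer (4.43%) and 154 were shorter (9.88%), against 534 longer (3.75%) and 533 shorter (3.74%) of the 14242 other tiles. The smallest adjusted p in this limma fit, which had no clone term, was 0.0305 in desert and in other tiles. Every call of this fit thus lay close to the 0.05 limit. The median log2 change was -0.23 over desert tiles and 0.04 over other tiles, and 991 of 1558 desert tiles (63.6%) had a negative change against 45.7% of the other tiles. These are counts over tiles that share 4 libraries, and the difference between the zones was not tested. With clone as a block in limma, 218 desert tiles were longer and 489 shorter. The adjusted p was then 0.00421 in the tile between Ackr3 and Cops8, for example. When any 1 library was left out, limma called 0 tiles in deserts and 0 in all; without 4OHT clone a, for example, 158 desert tiles were longer and 399 shorter at an unadjusted p under 0.05, and without untreated clone a the numbers were 150 and 236.

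**Figure D3:**
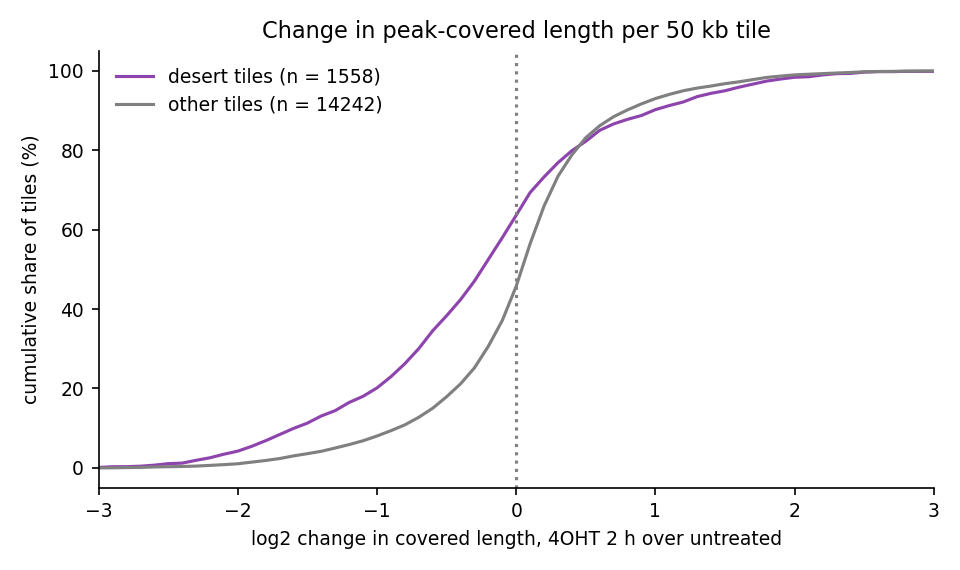
Cumulative share of 50 kb tiles (vertical axis, percent) at or below a given log2 change in peak-covered length, 4OHT over untreated (horizontal axis), for 1558 desert tiles and 14242 other tiles. The desert curve lies to the left over negative changes, with 20.2% of desert tiles and 8.05% of other tiles at or below -1, while 90.2% of desert tiles and 93.0% of other tiles lie at or below 1.

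Of the desert regions chosen in the lists of a single clone, 30.6% to 44.3% had the same pattern in the other clone. Those regions are the members themselves, by the rule that chose them, so the counts are a description and no independent check. Where the other clone also differed, the direction was mostly the same. Of 1085 desert regions called in the 4OHT list and not in the untreated list of clone a, 481 had the same pattern in clone b, 37 had the opposite one, 216 were called in both lists of clone b and 351 in neither. Of the 1856 with the opposite pattern in clone a, 798 had it in clone b too, 34 were reversed, 256 were in both lists and 768 in neither. When clone b chose, 481 of 1573 gained (30.6%) and 798 of 1971 lost regions (40.5%) had the same pattern in clone a. In neither list of clone a were 923 and 877. Counting only regions that also differed in the other clone, the direction was the same in 92.9% of gained and 95.9% of lost regions. Those shares were 93.4% and 95.6% when clone b chose and clone a was read. Nearer to genes the same shares were 91.3% to 92.5%. The overlap of desert peaks between libraries, as shared over total covered length, was 0.582 ± 0.0225 between clones of the same treatment, 0.475 ± 0.00912 between treatments of the same clone and 0.425 ± 0.0329 where both differed (SD, n = 2 pairs each). Desert lists of different clones under the same treatment were thus more alike than lists of 1 clone under different treatments, and every desert value was lower than its counterpart nearer to genes (0.648, 0.595 and 0.544).

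Both classes of members were narrower and lower in rank than desert regions called in all 4 lists, as were changed regions nearer to genes. This follows in part from the rule, since members merge peaks of fewer lists and may lie near a calling threshold. Their median width was 567 bp for gained (range 211 to 3742) and 580 bp for lost members (203 to 3767), against 1295.5 bp for desert regions called in all 4 lists, 492 bp for all desert regions, and 523 and 535 bp for gained and lost regions nearer to genes. Each peak's score, the authors' own value with no stated scale, was turned into a percentile of its own list. Gained members had median percentiles of 33.7 and 43.7 in 4OHT clones a and b, and lost members 36.0 and 35.7 in untreated clones a and b, while desert regions in all 4 lists had medians of 64.6 to 72.6. Nearer to genes the medians were 33.7 and 38.1 for gained and 34.0 and 31.5 for lost regions. Over the 50th percentile in both of their lists stood 84 gained (17.5%) and 120 lost members (15.0%). Over the 75th stood 5 and 11. A peak of the other treatment lay within 1 kb of 148 gained (30.8%) and 235 lost members (29.4%), so these members bordered acetylation that was called in the other treatment. No peak of the other treatment lay within 10 kb of 228 gained (47.4%) and 442 lost members (55.4%). A region called in all 4 lists lay within 10 kb of 38.5% of gained and 28.1% of lost members.

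Noncoding genes overlapped a larger share of gained than of lost members. An annotated gene other than a protein-coding one overlapped 118 gained members (24.5%, of which 110 lay in a lncRNA), 131 lost members (16.4%, of which 121 lay in a lncRNA), 21.2% of desert regions in all 4 lists and 18.5% of all desert regions. With noncoding genes counted in the distance as well, a setting added after the data were seen, 59 gained and 179 lost regions remained over 100 kb from any annotated gene, and the gained share was 24.8%.

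Many members had another of the same direction close by. The nearest member of the same direction was within 100 kb for 60.3% of gained and 58.5% of lost members. A region called in all 4 lists was as often within 100 kb, for 61.7% of gained and 58.4% of lost members. The nearest member of the opposite direction was within 100 kb for 15.4% and 8.65%, shares that also depend on the unequal numbers of members. Desert regions of any kind lay close together: the nearest other union region was a median 0.355 kb from gained and 0.3445 kb from lost members, and merging peaks within 1000 bp left 244 gained and 435 lost members, so some of these neighbours lay within 1000 bp of each other. Linking neighbours within 100 kb gave 34 groups of 3 or more gained members holding 144 of 481 (29.9%, largest 12) and 57 groups of lost members holding 215 of 798 (26.9%, largest 10). Between neighbouring protein-coding genes there were 1689 intervals over 200 kb, with 785 Mb of desert. Changed members were found in 535 of them: gained only in 145, lost only in 285 and both in 105. Among the 182 intervals with at least 3 members, 27 had gained only, 74 lost only and 81 both directions. Single deserts, some of them with members of both directions, are described next, gained first.

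The desert between Phlda1, an early gene induced by ERK signalling, and Krr1, a ribosome assembly factor, held 9 gained and 0 lost members among 17 desert regions. Peaks covered 14.6 and 15.0 kb of it in 4OHT clones a and b against 2.81 and 3.21 kb in untreated clones a and b. The first 7 members, which hold the Gm40763 start printed above, lay within 18.4 kb (chr10:111618683-111637094, mm10), where peaks covered 4.96 and 4.75 kb in 4OHT clones a and b and 0 kb in either untreated list. The other 2 members lay 116 to 118 kb from Krr1; the wider, 1945 bp, overlapped the lncRNA Gm20758 and was covered for 1845 and 1837 bp in 4OHT clones a and b. Of the fitted desert tiles past the threshold, the one over the first 7 members had the largest increase, a log2 change of 3.51 ± 0.17 (SE); it was not independent of how the members were chosen, as holds for every tile named below.

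The desert between Saraf and Dusp4, the gene of a nuclear phosphatase that inactivates ERK, held 6 gained and 0 lost members, with 7.59 and 8.60 kb covered in 4OHT clones a and b against 1.98 and 2.62 kb in untreated clones a and b. The member with the highest rank, 185 kb from Dusp4 in the lncRNA B930018H19Rik, was covered for 653 and 758 bp in 4OHT clones a and b and had no untreated peak within 57267 bp. Of the others, 3 lay next to each other around the Gm46069 start. The Bcl2l11 desert, beside the gene of the cell-death protein BIM, held 5 gained and 0 lost members. Peaks covered 9.50 and 8.57 kb of it in 4OHT clones a and b against 2.34 and 1.58 kb in untreated clones a and b. Its members included the 1339 bp region just upstream of the Morrbid start. A region called in all 4 lists lay 157 bp from that member, so it bordered acetylation also called in untreated cells. Downstream of Myc, 2 of the 3 gained members beside the gene lay in the lncRNA Pvt1, 198.6 and 200.2 kb from Myc, each covered for 1034 to 1291 bp in the 4OHT lists. The tile over them held 2.21 and 2.42 kb in 4OHT clones a and b against 0 kb in both untreated lists. The same interval holds the lost region 99.974 kb from Myc, which fell just short of the 100 kb limit and is no member.

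The gained member with the highest rank lay 221.8 kb from Sox4, a transcription factor gene, at chr13:28724669-28727147. It was covered for 2448 and 2450 bp in 4OHT clones a and b and stood at the 88.2 mean percentile. Its neighbour, the widest gained member at 3742 bp, lay next to it (covered for 3742 and 3420 bp), and both lie in the lncRNA 2610307P16Rik. This desert, from Prl5a1 to Sox4, held 3 gained and 0 lost members. Sox9, a regulator of cartilage and other lineages, had 3 gained and 0 lost members, of which the highest in rank lay 171.2 kb away and was covered for 1240 and 1290 bp.

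Among the deserts with the most gained members, those beside Plekhb2, Grin2a and Enc1 also held much acetylation in the untreated lists. The Hmga2 desert, like that of Phlda1 above, held little in the untreated lists. Between Plekhb2 and Hs6st1, a heparan sulfate sulfotransferase, there were 14 gained and 4 lost members, and within the 159 kb group of 11 gained ones peaks covered 34.6 and 45.0 kb in 4OHT clones a and b against 10.5 and 16.4 kb in untreated clones a and b. Between 1810013L24Rik and Grin2a, an NMDA receptor subunit gene, there were 12 gained and 2 lost members, with 53.2 and 53.4 kb of the 145 kb group covered in 4OHT clones a and b against 25.18 and 27.001 kb in untreated clones a and b. In that group 13 regions were called in all 4 lists, so the members there are additions to a stretch acetylated under both conditions. Between Hmga2, a chromatin architectural protein of the embryo, and Msrb3 there were 9 gained and 0 lost members within 63.1 kb, where peaks covered 10.5 and 12.8 kb in 4OHT clones a and b against 0.504 and 1.13 kb in untreated clones a and b. The desert between Enc1 and Arhgef28 held 8 gained and 2 lost members; the 8 gained ones formed a group, with 1 lost member inside its span and 44.3 and 43.1 kb covered in 4OHT clones a and b against 34.5 and 31.3 kb in untreated clones a and b. The 4OHT values lay above the untreated ones in each of these groups, which follows from how the members were chosen.

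**Figure D4:**
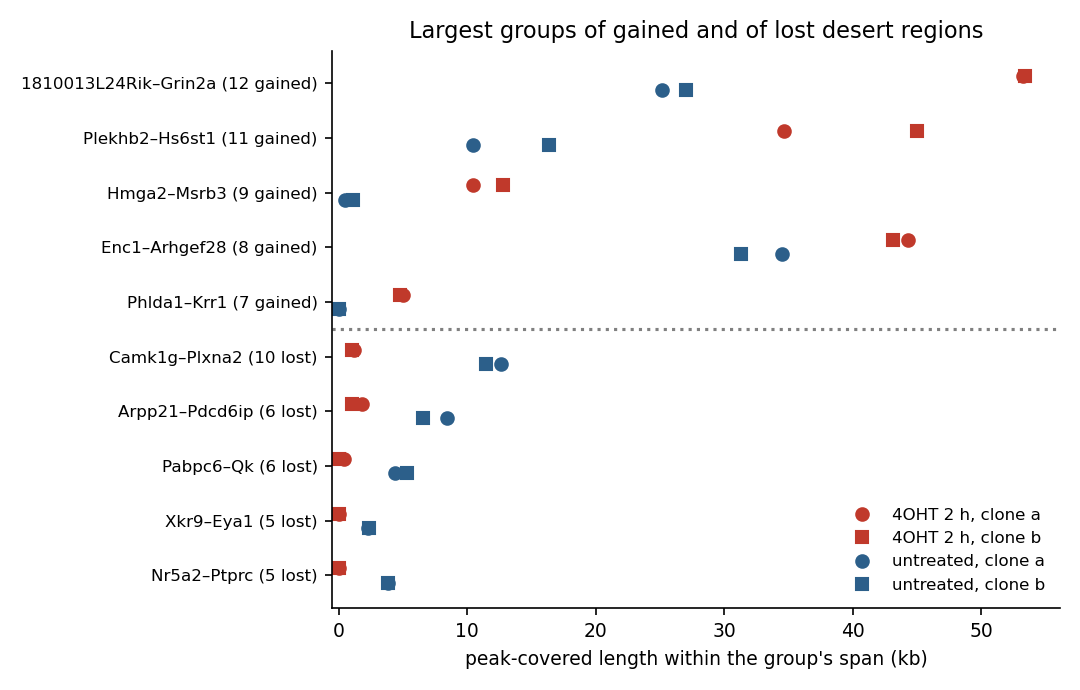
Peak-covered length (horizontal axis, kb) within the span of the 5 largest groups of gained members and the 5 largest groups of lost members (the last 2 tied with 4 not drawn), named by their flanking genes, in each of the 4 libraries (red, 4OHT; blue, untreated; circles, clone a; squares, clone b). In the Phlda1, Hmga2, Camk1g, Xkr9 and Nr5a2 groups one condition had little or no coverage, while in the Grin2a and Enc1 groups both conditions were covered and the lengths differed.

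Among deserts with losses, the one between Camk1g and Plxna2, a semaphorin receptor gene, held 13 lost and 0 gained members. Peaks covered 2.72 and 2.74 kb of it in 4OHT clones a and b against 16.7 and 16.8 kb in untreated clones a and b. A group of 10 of them spanned 104 kb at chr1:193486097-193590059, with 1.21 and 0.992 kb covered in 4OHT clones a and b against 12.6 and 11.5 kb in untreated clones a and b. The microRNA gene Mir205 lies inside this group: its hairpin was 0.374 kb from a 950 bp lost member in the lncRNA Mir205hg, and 4 lost members lay within 10 kb of it. miR-205 is known from epithelia, where it represses Zeb1 and Zeb2. Its mature forms are printed from RefSeq (GRCm38.p6), 5′ to 3′, with the seed (bases 2 to 8), the stretch that pairs with targets, in capitals.
miR-205-5p: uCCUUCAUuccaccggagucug
miR-205-3p: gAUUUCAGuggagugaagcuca
The files hold no RNA values, so whether the microRNA changed was not measured. Other hairpins within 10 kb of a member were Mir6372 (4.18 kb from a lost one), Mir6378 (9.07 kb, lost) and Mir6368 (9.85 kb, gained).

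The desert between Nr5a2, a nuclear receptor of the naive pluripotency network that activates Pou5f1, and Ptprc, a leukocyte surface phosphatase gene, held 10 lost members and 1 gained member. A group of 5 lost ones within 11.3 kb (chr1:137577296-137588603) had 0 kb covered in either 4OHT list against 3.83 and 3.81 kb in untreated clones a and b. This group lay 616.8 kb from Nr5a2 and nearer to Ptprc, at 474.3 kb. The highest in rank was 897 bp wide, stood at the 77.6 mean percentile and had no peak of a 4OHT list within 158070 bp. The only gained member of this desert, 598 bp, lay 430.3 kb from Nr5a2 and was covered for 577 and 493 bp in 4OHT clones a and b. The tile over the group of 5 had a log2 change of -3.16 ± 0.18 (SE). Between Arpp21 and Pdcd6ip there were 10 lost and 0 gained members. The Nr5a2 group and one between Xkr9 and Eya1 are 2 of 6 lost groups tied at 5 members. Of the 6, 3 had no 4OHT coverage in their span, while those beside Matn1, Gap43 and Slc4a3 were covered under both conditions. At Matn1 peaks covered 3.29 and 3.21 kb in 4OHT clones a and b against 7.11 and 5.68 kb in untreated clones a and b. At Slc4a3 they covered 1.57 and 1.56 kb in 4OHT clones a and b against 5.22 and 6.50 kb in untreated clones a and b.

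The lost member with the highest rank lay 1524 kb from Cdh8, a cadherin gene, and was 2188 bp wide; it held no 4OHT peak, against 2185 and 2140 bp of peaks in the untreated lists of clones a and b, although a 4OHT peak lay 352 bp away. Next came a 2501 bp member near 1700012A03Rik (no 4OHT peak, against 2501 and 2419 bp in the untreated lists). A region called in all 4 lists lay 250 bp from it. The widest, 3767 bp, lay 281.2 kb from Cd83 in the desert that ends at Jarid2, a Polycomb cofactor gene; it had no 4OHT peak within 33433 bp and was covered for 3531 and 3303 bp in the untreated lists. Between Ackr3, an atypical chemokine receptor gene, and Cops8 a 3690 bp member was covered for 3163 and 3357 bp. Its tile held 0 kb in both 4OHT lists against 5.23 and 6.02 kb in untreated clones a and b, the largest decrease among desert tiles past the threshold (log2 change -3.61 ± 0.18, SE). Other large decreases past the threshold were in the tiles between Cd83 and Jarid2 (-2.97) and between Ythdf3 and Cypt12 (-2.95). Among desert tiles past the threshold, the largest increases after Phlda1 were between Hmga2 and Msrb3 (3.20), Trim29 and Nectin1 (2.78), Bcl2l11 and Spdye4c (2.55) and Zc3h12a and Grik3 (2.50).

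Flanking genes were read against 4 lists, which were drawn up with earlier results of these data known, so their counts are no independent evidence of a direction. A desert was assigned to a list when either flanking gene was in it. ERK targets and feedback genes flanked 32 gained and 18 lost members (64% gained, against 37.6% of all changed desert regions). Besides Phlda1, Dusp4 and Myc, these were Cited2 with 4 gained and 2 lost, Spred2, an inhibitor of RAF activation, with 4 gained and 1 lost, and Klf6 with 2 gained and 4 lost. Dusp6, the cytoplasmic ERK phosphatase, had 1 gained and 2 lost members, and Epha4 had 0 gained and 7 lost, so members of the list differed in direction. Without Phlda1 and Dusp4 the list flanked 17 gained and 18 lost members (48.6% gained). Naive pluripotency genes flanked 10 gained and 17 lost members (37.0% gained): Tbx3 had 5 gained and 1 lost, Klf4 2 and 1, Mycn 2 and 0, Sox2 0 and 3 and Nr5a2, counted on both of its sides, 1 and 12. Most of the list's losses thus lay in deserts that Nr5a2 flanks, among them the group of 5 that is nearer to Ptprc. The list flanked 2.08% of gained and 2.13% of lost members, close to its 1.96% of all desert regions.

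Developmental transcription factors flanked 52 gained and 48 lost members (52% gained), which is 10.8% of gained and 6.02% of lost members against 6.57% of all desert regions. Tshz2 had 5 gained and 0 lost, Foxa2, a pioneer factor of endoderm, 4 and 1, Runx1, a blood regulator, 4 and 1, and Irx1 3 and 0; on the other side, Pou3f2, a neural factor, had 0 gained and 4 lost, and Sox11, Zeb2 and Tbx18 had 0 and 3 each. Neuronal adhesion and synapse genes, which flank many of the longest deserts, had 50 gained and 135 lost members (27.03% gained). Epha7, an ephrin receptor, and Cntn5, a contactin, each had 1 gained and 8 lost, Grik2, a kainate receptor, 1 and 7, Cdh20 0 and 6 and Chrm3 0 and 5. Some genes of the list went the other way, among them protocadherin Pcdh17 with 7 gained and 1 lost. Cntn6, Cntnap4, Csmd3 and Ctnna2 had 3 gained and 0 lost each. Genes of this list flanked 17.4% of all desert regions, 10.4% of gained and 16.9% of lost members; ERK targets flanked 2.83%, 6.65% and 2.26%.

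The members far from any gene were few and mostly lost. Over 500 kb from a gene lay 40 gained (8.32%) and 134 lost members (16.8%), against 17.9% of all desert regions, so the gained members were the ones below that share. The farthest lost member lay 1914 kb from Aga and was covered for 226 and 1009 bp in the untreated lists; the next lay 1727 kb from Slc39a10 (820 and 674 bp). The farthest gained members lay 1795 kb from Pik3c3 (965 and 788 bp in 4OHT clones a and b) and 1782 kb from Pcdh9 (569 and 303 bp).

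By chromosome, lost members outnumbered gained ones on 15 of 20 chromosomes, gained ones on 2, and the numbers were equal on 3. Chromosome 10, which carries the Phlda1 and Hmga2 deserts, had 58 gained and 29 lost members. Chromosome 1 had 35 gained and 106 lost. Its share of each peak list was 6.22% and 6.29% in 4OHT clones a and b against 6.80% and 6.59% in untreated clones a and b; the part of this in the result was not tested. Without chromosome 1 there were 446 gained and 692 lost members, a gained share of 39.2%.

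**Figure D5:**
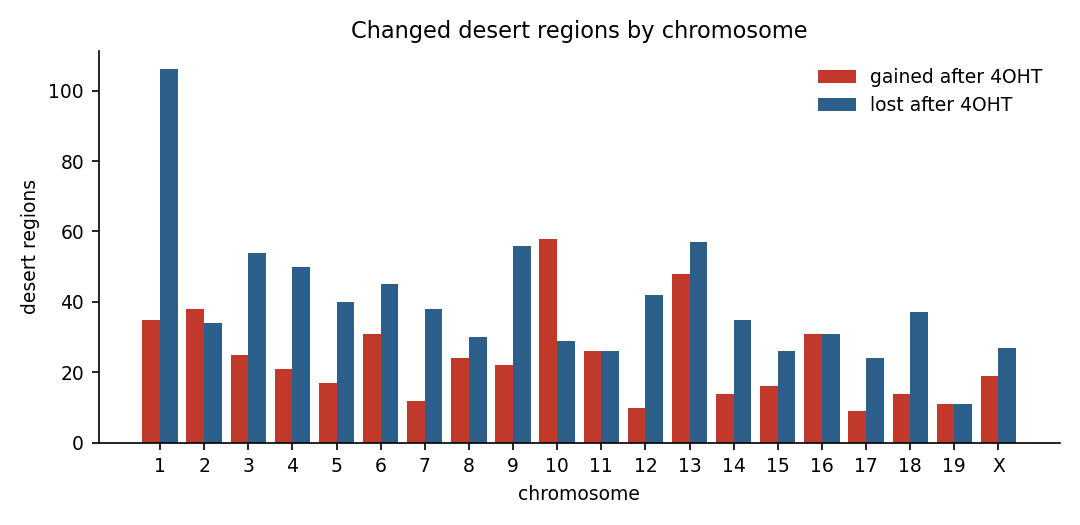
Numbers of gained (red) and lost (blue) desert regions (vertical axis) on each chromosome with members (horizontal axis). Lost members were the larger group on 15 of 20 chromosomes, with the widest gap on chromosome 1 (35 gained, 106 lost), and gained members on chromosomes 2 and 10.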

How the data were processed

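H3K27ac was profiled by chromatin immunoprecipitation and sequencing (antibody ab4729, per the labels' protocols). Bowtie2, bedtools and MACS2 were used on the mm10 build, per the submitters' processing notes, with versions, thresholds and the role of the inputs not given in the sources used here. The authors deposited 1 peak list per library, giving peak positions and a score with no stated scale or unit. The 4 input libraries were not analysed here. No counts are given, so depth is unknown.

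Peaks were merged at 1 bp of overlap, and distances taken to 21887 RefSeq protein-coding gene intervals (GRCm38.p6, the coordinates of mm10). The members, gene lists and motifs were chosen with earlier results of these data known. Regions named are the highest in score percentile, farthest, widest, in the largest groups, in noncoding genes or beside listed genes, and the 5 tiles with the largest change each way. The Mir205 and Morrbid loci, the Myc desert and the intervals with most members were singled out after their values were seen. Some regions and tiles that this rule picks are not reported here.

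Covered length in 50 kb tiles with a mean of at least 500 bp was compared with limma 3.58.1 (R 4.3.3; mean-dependent prior, no clone term), after a test on simulated data. Labels give the same clones in both treatments, so clones pair the libraries; same-clone deviations from the group means correlated at 0.58 over all tiles. Since nothing in the labels says that the clones are separate cultures of separate origin, p-values measure the spread between these libraries. Genome sequence of the regions was not used here, so motifs were searched in RefSeq promoter windows only.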

Additional observations from a re-analysis of the deposited data

How the results depend on the processing

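The gained share of changed desert regions lay below the share nearer to genes in 11 of 11 other settings. Gained and lost members were 215 and 366 with the upper 50% of each list, 112 and 268 with the top 20000 peaks (gained share 29.5%), 244 and 435 with peaks within 1000 bp merged, and 221 and 465 over 200 kb from a gene (32.2%). Over 50 kb from a gene 756 were gained. Leaving out a library compares a single list with a pair, which moves both zones: over the 4 such settings gained members ranged from 619 to 1468, lost ones from 1056 to 1857 and the gained share from 25% to 57.8%. The share passed 50% without 4OHT clone a (57.8%, against 64.4% nearer to genes), and was 46.2% without 4OHT clone b, 25% without untreated clone a and 29.6% without untreated clone b. Among alternatives added after the data were seen, 59 and 179 members (24.8%) lay over 100 kb from any annotated gene, and 228 and 442 (34.0%) over 10 kb from a peak of the other treatment. Leaving out chromosome 1 or regions near antigen receptor segments (5 gained, 6 lost) changed each count by under 1.5 times.

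Desert tiles called longer and shorter were 218 and 489 with clone as a replicate block, since the clones pair the libraries, and 34 and 88 with no filter on length; without any 1 library limma called 0 to 0 of either, and 97 to 172 longer and 236 to 404 shorter at an unadjusted p under 0.05. That leaves 3 libraries, so the lone library is assumed to vary like the other group. The share of desert tiles with a negative change stayed above that of all tiles in all 11 alternatives (57.9% to 68.0% against 45.4% to 49.1%). The desert covered length difference was -0.402 to -0.868 Mb under the alternatives tried. Read depth is unknown, so a gained or lost call cannot be told apart from a peak near the calling threshold. The causes of these changes were not tested.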
